A study of Mus musculus with 8 samples.

Results

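The core spliceosome and hnRNP genes were described in the mouse hippocampus through 70 genes whose symbols begin with Hnrnp, Snrp, Sf3a, Sf3b, Prpf, Lsm or U2af. They were chosen by symbol alone from a table of 56575 features, of which 24338 carry a symbol. In all, 72 rows matched. Where a symbol had a second row, as for Hnrnpf, the row with the higher mean was kept. All 70 genes had a mean value of at least 10, the level at which features were tested. They fall into 9 subfamilies by symbol, with 7 genes of hnRNP A/B and D, 4 of hnRNP F and H, 9 other hnRNPs, 8 of the Sm ring, 4 proteins specific to the U1 or U2 snRNP, 9 of SF3A and SF3B, 3 of U2AF, 13 PRPF genes and 13 LSm genes.

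The RNA-seq libraries, 4 with the genotype label WT (wild type) and 4 with the label Slm2KO, were made from whole hippocampus of C57BL/6 mice aged 8 weeks. The study asked how expression and splicing differ between these genotypes. SLM2 is the RNA-binding splicing regulator encoded by Khdrbs3; the labels do not state how, or in which cells, it was deleted. Nothing in the labels ties each sample to an animal of its own, so the spread behind every p-value is that between samples and may be technical. In such bulk tissue fewer cells of a type and less RNA per cell cannot be told apart.

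The spliceosome removes introns from pre-mRNA. U1 and U2 snRNPs, each an RNA carried on a ring of Sm proteins, recognise the ends of the intron, with U2AF and SF3B at the 3′ splice site and branch point. PRPF proteins then help to bring in and rearrange the U4/U6.U5 tri-snRNP, in which LSm proteins hold U6. The hnRNPs coat the pre-mRNA and, much like the STAR-family proteins to which SLM2 belongs, change which exons are kept.

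The libraries held 104020058 to 125985224 reads, and the 70 genes took 0.662% to 0.692% of them. Khdrbs3 itself had normalised read counts of 20662, 23542, 19457 and 24544 in WT 1 to 4 and of 29676, 33366, 30022 and 25932 in Slm2KO 1 to 4, so the targeted gene showed no loss in the libraries labelled Slm2KO. Whether its reads came from the deleted part cannot be told from 1 value per gene. Over all features, 1 of 25667 (0.00390%) passed an adjusted p of 0.05 in limma, the related gene Khdrbs2, with a log2 difference of 1.18 (Slm2KO-labelled minus WT). All 5 neuron markers, and all markers listed for dentate granule, CA pyramidal and interneuron cells, were above 0 in each library. Ttr, made by the choroid plexus next to the hippocampus, ran from 219052 in WT 2 to 2262369 in Slm2KO 4. The sample numbers in the labels form a lower and a higher series, with 2 WT and 2 Slm2KO libraries in each; what the series stand for is not stated.

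The coding sequences of 2 pairs of near-copies are shown first, because several results compare the levels of such copies and the reads can be split between them only where the letters differ. Snrpn and Snrpb encode SmN, the brain form, and SmB, its general counterpart in the Sm ring. The first 120 coding bases of each, 5′ to 3′, from GENCODE vM21 transcripts, have capitals at the 17 bases that differ.
Snrpn: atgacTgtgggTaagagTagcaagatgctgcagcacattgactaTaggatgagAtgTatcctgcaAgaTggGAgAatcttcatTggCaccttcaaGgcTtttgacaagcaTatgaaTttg
Snrpb: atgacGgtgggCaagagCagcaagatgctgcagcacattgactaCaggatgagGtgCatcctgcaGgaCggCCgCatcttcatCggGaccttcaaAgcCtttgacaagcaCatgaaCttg
The coding sequences of this pair were 77.5% identical over the longer of them, with a longest shared run of 32 bases. Hnrnph1 and Hnrnph2 encode 2 closely related binders of G-rich RNA. Their first 120 coding bases, again with capitals at differing bases, differ at 22.
Hnrnph1: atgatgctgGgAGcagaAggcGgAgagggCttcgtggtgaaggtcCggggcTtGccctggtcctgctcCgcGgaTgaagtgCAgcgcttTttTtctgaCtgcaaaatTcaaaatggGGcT
Hnrnph2: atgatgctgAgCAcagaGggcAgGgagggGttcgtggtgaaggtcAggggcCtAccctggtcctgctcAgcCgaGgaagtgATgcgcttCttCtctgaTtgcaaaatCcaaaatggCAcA
They were 81.3% identical, with a longest shared run of 34 bases. Of the stretches of 50 coding bases in Snrpn and in Hnrnph1, 0 occurred in the partner.

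Copies elsewhere in the transcriptome matter more for some genes. Of the 70 genes, 19 shared no 50-base stretch of their exons with another gene, among them Hnrnpa0, Hnrnpu, Sf3b1, Prpf8 and Lsm14a. In 22 genes over 10% of stretches were shared. Snrpf shared 89.5%, most with Ccdc38, which overlaps it on the opposite strand. U2af1l4 shared 80.2%, Hnrnpf 66.3%, U2af1 53.5%, Sf3b4 51.2% and Hnrnpa1 46.7%, largely with predicted genes. How the authors counted reads that fit more than 1 gene is not stated, so the levels of these genes are uncertain. The row of Snrpn also carries Snurf, and that of U2af1l4 carries Igflr1; neither pair can be separated here.

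Levels between genes were compared as normalised read count per kb of exon, averaged over the 8 libraries, as a description without a test. The median over the 70 genes was 2175 per kb, against 574 per kb over the 15823 tested features with a known exon length. Subfamily medians ran from 6276 per kb in the Sm ring and 5896 in hnRNP A/B and D, through 4287 in the other hnRNPs, 3669 in hnRNP F and H, 3116 in SF3A and SF3B and 2168 in U2AF, to 1922 in the U1 and U2 proteins, 1408 in LSm and 1146 in PRPF. The subfamilies overlapped widely. The authors' gene models are not given, so these levels are approximate: only exons inside the span of a gene's row were counted, and counting the whole annotated exons made 6 of the 70 genes over 1.5 times as long. On those lengths the median of the Sm ring was 3561 per kb, below hnRNP A/B and D (5896), the other hnRNPs (4287) and hnRNP F and H (3662), and PRPF was still lowest at 988. The median was then 1893 per kb over the 70 genes and 526 over all features with a length.

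**Figure D1:**
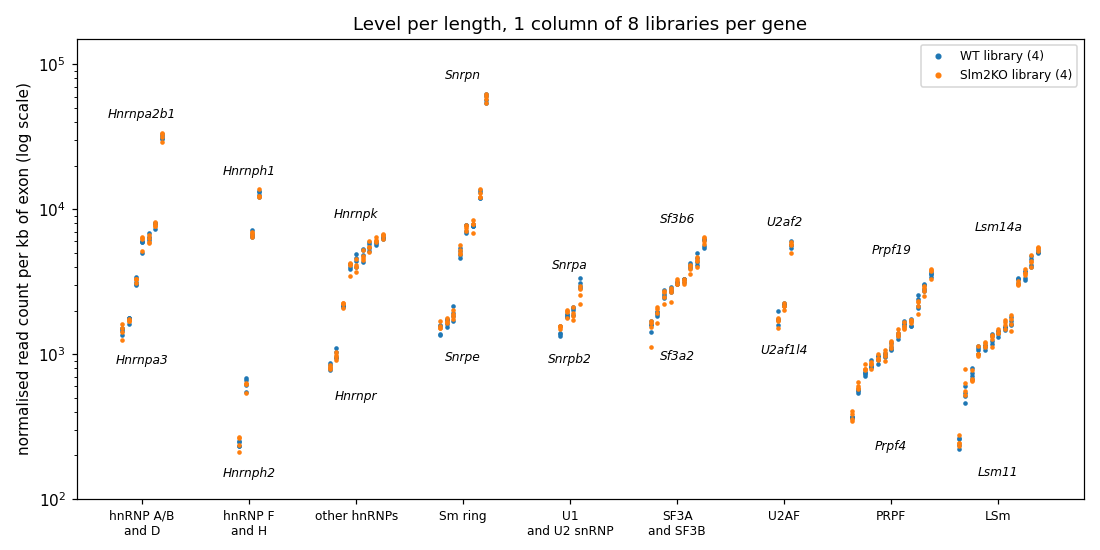
Normalised read count per kb of exon inside the gene's row (log axis) for each of the 70 genes, 1 column of points per gene, with WT libraries in blue and libraries labelled Slm2KO in orange; the highest and the lowest gene of each subfamily are named. Snrpn stands at a mean of 58716 per kb and Hnrnph2 at 243 per kb, and within each column the 8 libraries lie close together.

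Snrpn was the highest of the 70, at 58716 per kb, above 99.7% of features with a known length. Its normalised read counts were 117033, 131209, 122344 and 135519 in WT 1 to 4 and 123847, 134999, 130325 and 116056 in Slm2KO 1 to 4, so the groups overlapped over nearly their whole range. Hnrnpa2b1, an hnRNP that packages pre-mRNA and is also known for mRNA transport in neurons, followed at 31665 per kb. Hnrnph1 stood at 12724 per kb, or at 12197 over whole exons. Snrpd2, a core Sm protein, stood at 12696 per kb over the 489 exon bases inside its row, but at 4372 over its 1420 annotated bases. Within the Sm ring, whose proteins enter the ring in equal numbers, mRNA levels other than that of Snrpn spread from 1522 per kb (Snrpe) to 12696 (Snrpd2), and over whole exons from 704 (Snrpg) to 7762 (Snrpb). The 2 lowest genes were Hnrnph2, at 243 per kb, and Lsm11, a protein of the U7 snRNP that processes histone mRNA, at 247 per kb. Among the other hnRNPs, Hnrnpk was highest at 6475 per kb and Hnrnpr lowest at 816, or at 304 over whole exons. Of SF3A and SF3B, Sf3b6, which contacts the branch point, was highest at 5981 per kb and Sf3a2 lowest at 1539; over whole exons Sf3b5 was lowest, at 846 per kb in place of 4435. U2af2, the large subunit of U2AF that reads the polypyrimidine tract, stood at 5633 per kb. Its small-subunit partners U2af1 and U2af1l4, which read the AG of the 3′ splice site, stood at 2168 and 1715 per kb. Prpf19, the ubiquitin ligase of the complex that carries its name, was the highest PRPF gene at 3614 per kb, and Prpf4, a tri-snRNP protein, the lowest at 370.2. Lsm14a, a protein of cytoplasmic P-bodies, was the highest LSm gene at 5211 per kb.

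Comparing the genotypes, no gene of the core spliceosome or hnRNP families passed the adjusted threshold. None of the 70 had an adjusted p under 0.05 in limma, and the count was also 0 in edgeR's quasi-likelihood test and in DESeq2. At an unadjusted p under 0.05, 2 of 70 genes (2.86%) stood out, Prpf39 with the higher and Snrpa with the lower mean in the libraries labelled Slm2KO, against 904 of 25667 features (3.52%). DESeq2 also had 2 and edgeR 3 genes at that level. Without the intensity trend in limma there were 0, and without the libraries of lowest and highest Ttr (WT 2 and Slm2KO 4) there were 4. Leaving out Slm2KO 3, WT 2, WT 3 or WT 4 left 1. The groups did not overlap for 1 gene (1.43%), Prpf39, against 2.50% of all features. For 70 genes such counts lie near the background shares, and no result about these genes is read from them.

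The log2 differences of the 70 genes ran from -0.22 (Snrpa) to 0.22 (Lsm5), with 35 positive and 35 negative and a median of 0.002. Of all features 46.1% were positive, with a median of -0.011. The intervals describe each gene singly, are not adjusted for the number of genes and rest on the spread between samples. They set no firm bound on a difference between the genotypes. For 67 of 70 genes the 95% confidence interval lay inside a 1.25-fold change in either direction, all but Snrpa, Sf3a2 and Lsm5, and for 70 of 70 it lay inside 1.5-fold. Over all features the shares were 42.9% and 65.7%. Many of those features are low and therefore noisy. Among the 14907 features with a mean at least that of the lowest of the 70 genes the share inside 1.25-fold was 72.6%. That floor was set by Lsm5 (mean 288) and lies far under most of the 70 genes, so this comparison is not matched for level either. The median standard error was 0.0630 for the 70 genes and 0.126 for all features on the log2 scale, and the median SD within a group was 0.0843 against 0.179.

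**Figure D2:**
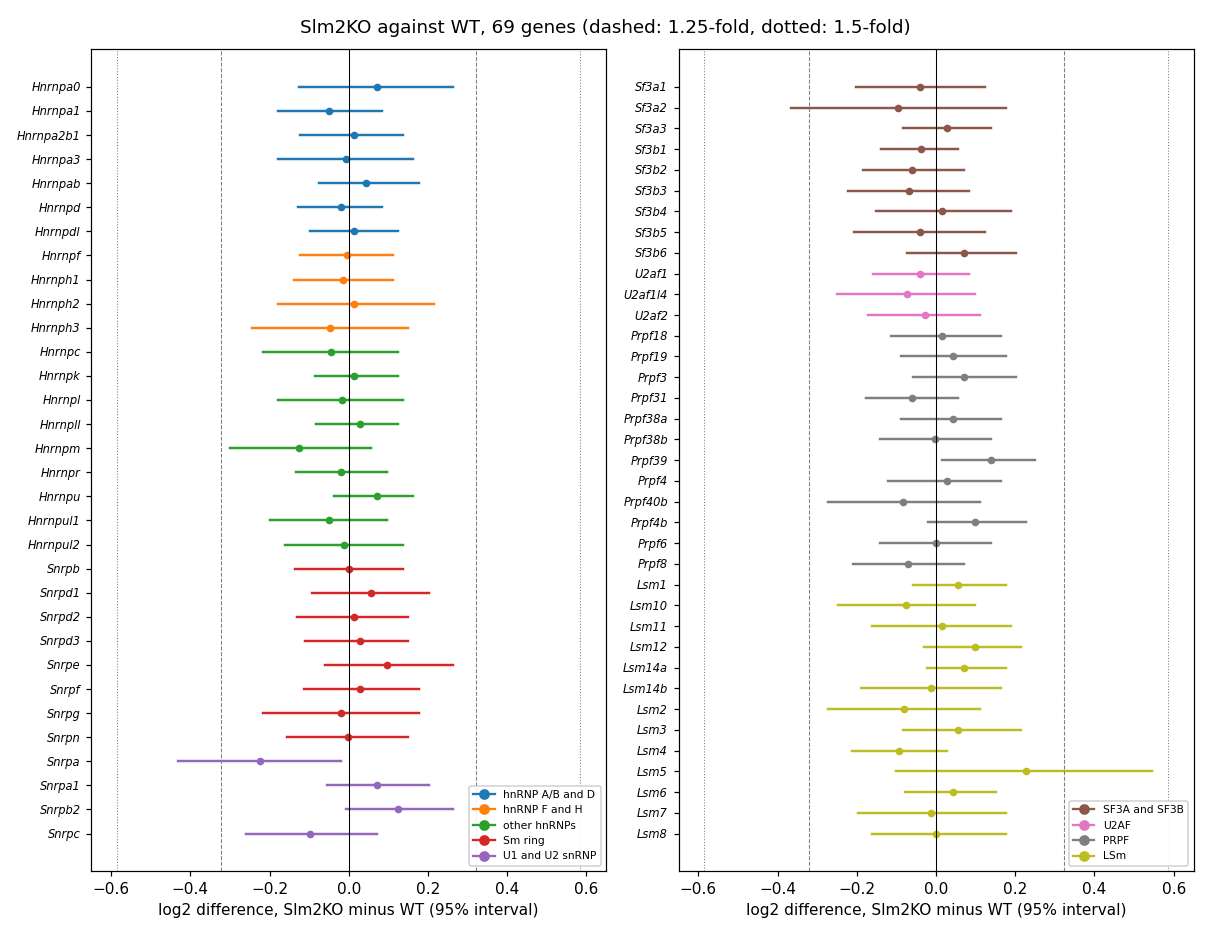
Log2 difference, Slm2KO-labelled minus WT (x axis), with its 95% confidence interval from limma for 69 of the 70 genes (y axis), coloured by subfamily; dashed lines mark 1.25-fold and dotted lines 1.5-fold. Points lie on both sides of 0 in 8 of the 9 subfamilies, and only the intervals of Snrpa, Sf3a2 and Lsm5 cross a dashed line.

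Among the hnRNPs, 4 of 7 A/B and D genes, 1 of 4 F and H genes and 3 of 9 others had a positive difference, and none had an unadjusted p under 0.05. Hnrnpa0, an intronless hnRNP gene, had 16267, 15996, 13457 and 15933 normalised reads in WT 1 to 4 and 17062, 16693, 17194 and 13724 in Slm2KO 1 to 4. In each group 1 library stood low, and the log2 difference was 0.07 (SE 0.0871). It was 0.003 without WT 3 and 0.144 without Slm2KO 4. Hnrnpm, which binds GU-rich RNA, had the lowest difference of the hnRNPs at -0.13 (SE 0.0788; adjusted p = 1.00, limma). Its values were 16071, 19735, 17652 and 18474 in WT and 14888, 18371, 16592 and 16098 in the libraries labelled Slm2KO, and the groups overlapped. The difference was -0.078 without Slm2KO 1 and -0.079 without WT 2. Hnrnpu, which binds chromatin-associated RNA, was among the least variable of the 70 genes, with an SD within groups of 0.0417 on the log2 scale. It had 45559.6, 44854, 43329 and 45276 normalised reads in WT against 46432, 49051, 46649.7 and 45195, a log2 difference of 0.07 (SE 0.0466). Hnrnpab, an A/B-type protein, had a difference of 0.05 (SE 0.0549) and Hnrnph3 of -0.05 (SE 0.0876). Without Slm2KO 1, whose Hnrnph3 value of 1291 was the lowest, the latter was 0.007.

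In the Sm ring 6 of 8 differences were positive, and none had an unadjusted p under 0.05. The differences ran from -0.02 for Snrpg to 0.10 for Snrpe (SE 0.0718). Snrpe had 1886, 1838, 2117 and 2158 normalised reads in WT and 2076, 2058, 2299.6 and 2132 in the libraries labelled Slm2KO. In both groups replicates 3 and 4, of the higher number series, lay above replicates 1 and 2, and the groups overlapped. The difference was 0.066 without Slm2KO 3 and 0.061 without WT 2. Snrpn showed a difference of -0.0024 (SE 0.0687), with a 95% interval of 0.898 to 1.11-fold. Snrpb had a difference of 0.0038 (SE 0.0624).

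The differences of the proteins specific to U1 and U2 ran from -0.22 to 0.13. Snrpa encodes the A protein of the U1 snRNP, which binds a stem-loop of U1 RNA and also regulates its own polyadenylation (chromosome 7, 27187001 to 27196271, minus strand, mm10). Its values were 4663, 5243, 4497 and 4873 in WT 1 to 4 and 4438, 4660.3, 4008 and 3468 in Slm2KO 1 to 4, means of 4819 ± 322 and 4143 ± 526 (SD, n = 4). Slm2KO 1, 3 and 4 lay below all WT libraries, while Slm2KO 2 lay above WT 3. The log2 difference was -0.22 (SE 0.0921), a 0.742 to 0.987-fold interval. Its unadjusted p was 0.0348 and its adjusted p 1.00 in limma, and the exact permutation test (two-sided, 8 libraries) gave p = 0.0571. The difference was -0.12 in the lower and -0.33 in the higher number series. It was -0.142 without Slm2KO 4 and -0.101 (unadjusted p 0.180 in limma) without both WT 2 and Slm2KO 4, the libraries of lowest and highest Ttr. With log2 Ttr as a covariate it was -0.216 (unadjusted p 0.00397, adjusted p 0.914, limma). The size of the difference thus rests in part on Slm2KO 4. Of the stretches of 50 exon bases in Snrpa, 26.1% occurred in another gene.

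Snrpb2, which encodes the counterpart of that protein on U2, had 2759, 2835, 2874 and 3216 normalised reads in WT and 3075, 3247, 3245 and 3182 in the libraries labelled Slm2KO. WT 4 lay among the latter and the other WT libraries below them. The log2 difference was 0.13 (SE 0.0604), with an unadjusted p of 0.0599 and an adjusted p of 1.00 in limma. Snrpa1, its partner on U2, differed by 0.07 (SE 0.0586) and Snrpc, the C protein of U1, by -0.10 (SE 0.0734).

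In SF3A and SF3B, which hold U2 at the branch point, 3 of 9 differences were positive, and in U2AF 0 of 3. None of these 12 genes had an unadjusted p under 0.05. Sf3a2 had 2745, 2849.8, 2417 and 2698 normalised reads in WT and 2853, 2797, 2588 and 1897 in the libraries labelled Slm2KO. Slm2KO 4 stood alone below the others. The log2 difference was -0.10 (SE 0.122) with that library and 0.038 without it. Sf3b1, the subunit that clamps the branch point, varied least in this subfamily, with values of 19545, 20392, 20537 and 20616 in WT against 20174, 20303, 19471 and 19021. Its difference was -0.04 (SE 0.0451) and its interval 0.908 to 1.04-fold. Sf3b2 had a difference of -0.06 (SE 0.0559), which was -0.019 without Slm2KO 4 and -0.001 without both WT 2 and Slm2KO 4. U2af1l4 had one of -0.07 (SE 0.0788), which was 0.033 without WT 2 and Slm2KO 4. U2af2 differed by -0.03 (SE 0.0636).

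Of the PRPF genes 8 of 13 differences were positive. Prpf39 encodes a U1-associated protein that takes part in recognition of the 5′ splice site (chromosome 12, 65036332 to 65063385, plus strand, mm10). Its values were 2859, 3052, 3001 and 2968 in WT 1 to 4 and 3158, 3501, 3194 and 3188 in Slm2KO 1 to 4, means of 2970.1 ± 81.7 and 3260.3 ± 161 (SD, n = 4). Each library labelled Slm2KO lay above each WT library. The log2 difference was 0.13 (SE 0.0546), a 1.01 to 1.19-fold interval, with an unadjusted p of 0.0343 and an adjusted p of 1.00 in limma. The two-sided exact permutation p was 0.0286, the smallest that 8 libraries in 2 groups of 4 allow. The difference was 0.17 in the lower and 0.10 in the higher number series, and 0.099 (unadjusted p 0.108 in limma) without Slm2KO 2, its highest library. Of its 50-base stretches 12.5% were shared with Fkbp3, which overlaps its end on the opposite strand. As the kit leaves strand unmarked, reads of the overlap could belong to either gene. Prpf4b, a kinase that acts on the tri-snRNP, had 4274, 4425, 4361 and 4103 normalised reads in WT against 4492, 4952, 4370.2 and 4626, a difference of 0.10 (SE 0.0553). Prpf8, the scaffold at the catalytic centre, differed by -0.07 (SE 0.0628). Prpf40b had the lowest difference of the PRPF genes, -0.08 (SE 0.0856), which was 0.032 without WT 2 and Slm2KO 4.

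Of the LSm genes 8 of 13 differences were positive. Lsm5, a subunit of the ring on U6 and of the ring that marks mRNA for decay, was the most variable of the 70 genes, at an SD within groups of 0.216 on the log2 scale. It was also low, with 258, 229.6, 271 and 301 normalised reads in WT and 261, 317, 393 and 278 in the libraries labelled Slm2KO. Slm2KO 2 and 3 lay above all WT libraries, and Slm2KO 1 and 4 lay among them. The log2 difference of 0.22 (SE 0.146) had an interval of 0.933 to 1.46-fold, and was 0.107 without Slm2KO 3. Lsm14a was the least variable, with an SD of 0.0353. It had 14056, 13794, 14575 and 14029 normalised reads in WT against 14324, 14905, 15007 and 15205, a difference of 0.07 (SE 0.0439). Lsm4, another ring subunit, had the lowest LSm difference at -0.09 (SE 0.0527), with 3139, 2919, 3174 and 3112 normalised reads in WT against 3021, 2812, 2862 and 2863.

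**Figure D3:**
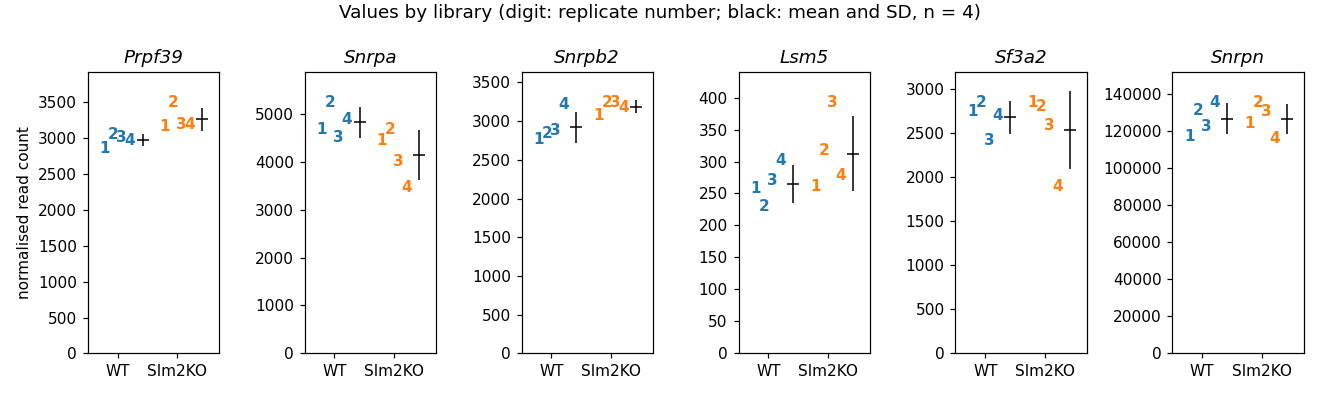
Normalised read count (y axis from 0) in each library for Prpf39, Snrpa, Snrpb2, Lsm5, Sf3a2 and Snrpn, with digits giving the replicate number within WT (blue) and Slm2KO-labelled (orange) libraries and black bars the mean ± SD (n = 4). The groups are apart only for Prpf39 (2859 to 3052 against 3158 to 3501), and Slm2KO 4 is the lowest library for Snrpa (3468) and Sf3a2 (1897).

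Promoters are shown for the 2 genes with an unadjusted p under 0.05, since their means lay on opposite sides. Each window of 300 bases runs from 250 before to 50 after the annotated start, 5′ to 3′ on the gene's strand, from RefSeq on GRCm38.p6. Capitals mark matches on either strand to a set of promoter motifs. In Prpf39 (chr12:65036084-65036383, plus strand) they mark a GC box (GGGCGG) and an NRF1 motif. In Snrpa (chr7:27196222-27196521, minus strand) they mark a GC box, a TATA box (TATAAA) and a cyclic AMP response element (TGACGTCA). These matches begin at bases 8, 80 and 138 of the window, and the annotated start follows base 250. The TATAAA match is thus not next to the start.
Prpf39: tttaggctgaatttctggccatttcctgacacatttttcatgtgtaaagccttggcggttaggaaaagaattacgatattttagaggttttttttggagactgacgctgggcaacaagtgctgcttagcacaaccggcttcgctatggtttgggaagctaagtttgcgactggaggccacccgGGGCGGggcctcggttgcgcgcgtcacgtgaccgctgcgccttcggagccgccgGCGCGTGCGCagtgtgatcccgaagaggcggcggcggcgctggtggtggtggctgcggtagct
Snrpa: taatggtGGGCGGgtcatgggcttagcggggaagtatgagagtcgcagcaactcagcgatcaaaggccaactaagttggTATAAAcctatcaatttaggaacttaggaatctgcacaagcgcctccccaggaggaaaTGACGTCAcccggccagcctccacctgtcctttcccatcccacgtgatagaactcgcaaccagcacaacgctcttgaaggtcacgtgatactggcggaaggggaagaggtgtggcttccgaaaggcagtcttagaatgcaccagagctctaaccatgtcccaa
Of the motifs searched, the 2 windows share only the GC box. Promoter entries matched 58 of the 70 genes. A motif was counted for a gene if any of its windows held it. An ETS motif (CCGGAAG) was in 29.3% of these genes and in 16.4% of 12706 expressed genes. The NRF1 motif was in 20.7% and 9.48%, a CCAAT box (CCAAT) in 53.4% and 42.1%, and the GC box in 67.2% and 63.2%. The TATA box was in 8.62% and 9.61%, the cyclic AMP response element in 5.17% and 3.24%, and a YY1 motif (AAGATGGC) in 6.90% and 4.37%. A palindrome with CGCG at its centre was in 1.72% and 0.905%, and a ZNF143 motif in 0 of 58 genes and 0.645%. Overlaps between motifs were not removed, and a match is a description of the letters, not of a bound site.

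Within-library ratios of related genes do not depend on how a library was scaled, and 11 pairs were compared. None passed the threshold between the genotypes, with a lowest two-sided exact permutation p of 0.200 and adjusted values of at least 0.838 over the 11 pairs. The smallest p this exact permutation test allows is 0.0286. After adjustment over 11 pairs, a single pair with its groups fully apart could therefore not have passed. The test cannot show that a ratio was unchanged. Per kb, Snrpn exceeded Snrpb by 7.60 ± 0.630-fold in WT and 7.56 ± 0.475-fold in the libraries labelled Slm2KO (SD, n = 4), with 6.82 in WT 1 and 8.21 in WT 4 as the extremes. Hnrnph1 exceeded Hnrnph2 by 53.1 ± 2.47 and 52.2 ± 5.21-fold. Hnrnpd, the AUF1 protein of mRNA decay, stood at 0.223 ± 0.00103 of its relative Hnrnpdl in WT and at 0.219 ± 0.00894 in the libraries labelled Slm2KO. Hnrnpa1 stood at 0.204 ± 0.00380 and 0.196 ± 0.0121 of Hnrnpa2b1, and Hnrnpul1 at 0.181 ± 0.00388 and 0.176 ± 0.00470 of Hnrnpul2. Hnrnpl exceeded its relative Hnrnpll by 1.87 ± 0.104 and 1.82 ± 0.109-fold. Lsm1, which defines the cytoplasmic LSm ring, stood at 0.258 ± 0.0247 and 0.268 ± 0.0270 of Lsm8, which takes its place in the nuclear ring. U2af1 was at 1.26 ± 0.136 and 1.28 ± 0.0368 times U2af1l4 per kb. Before division by length its read count was only 0.497 (WT 2) to 0.645 (WT 3) of that of U2af1l4. The length used for U2af1l4 is that of its joint row with Igflr1, so the direction of this ratio is uncertain. Again per kb, Prpf38a was at 1.94 ± 0.0954 and 2.00 ± 0.110 times Prpf38b, and Lsm14a at 3.04 ± 0.232 and 3.24 ± 0.401 times Lsm14b.

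Single libraries stood apart in some subfamilies. Slm2KO 4 was the lowest library for 28 of the 70 genes, WT 1 for 14 and Slm2KO 3 for 0. The median deviation from the gene mean in Slm2KO 4 was -0.16 on the log2 scale for SF3A and SF3B and -0.17 for U2AF, but -0.004 for the Sm ring and 0.04 for hnRNP F and H. WT 2 stood at 0.11 for U2AF and -0.10 for the Sm ring. Slm2KO 4 was also the shallowest library, had the highest Ttr (2262369) and had the lowest summed level of the 5 neuron markers (433564, against 501406 to 555398 in the other libraries labelled Slm2KO and 482835 to 565874 in WT). The 5 choroid plexus markers summed to 226167 to 1834721 in WT and 385709 to 2320525 in the libraries labelled Slm2KO. None of these 10 markers was at 0 in a library or passed the adjusted threshold. Summed CA pyramidal markers were lowest in WT 3 (52647, against 57245 in Slm2KO 4). Summed interneuron markers were lowest in Slm2KO 2 (67310.5, against 67729.5 in Slm2KO 4). Those of dentate granule cells (21061), microglia (35353) and endothelium (6498) were lowest in Slm2KO 4. The part of these markers in the deviations was not tested. Counts of positive differences also differed between the 2 number series, each of 2 WT and 2 Slm2KO-labelled libraries. The 70 genes were read in the same libraries, so these are not counts of independent results. In the lower series 52 of 70 differences were positive with a median of 0.046, and in the higher series, which holds Slm2KO 4, 23 of 70 with a median of -0.037. Over all features 49.2% were positive in the lower and 47.0% in the higher series. Without Slm2KO 4 the count was 45 of 70, against 49.3% of all features.

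**Figure D4:**
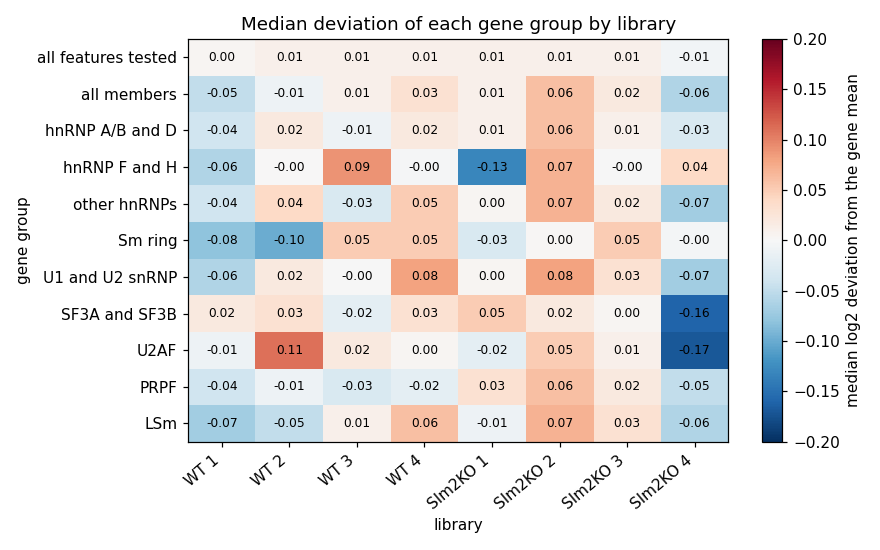
Median log2 deviation of each library (columns) from the mean of each gene, over all tested features, all 70 genes and each subfamily (rows), in numbers and colour from blue (low) to red (high). The lowest cells are those of SF3A and SF3B (-0.16) and U2AF (-0.17) in Slm2KO 4, while the row of all features stays within 0.01 of 0.

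Other genes of the pathway were read from 6 lists holding 93 symbols outside these families, of which 91 were matched and tested. None of the 91 had an unadjusted p under 0.05, 46 were positive and 45 negative, and 88 had intervals inside 1.25-fold. Of all features 3.52% had an unadjusted p under 0.05, 46.1% were positive and 42.9% had intervals inside 1.25-fold. These shares are not matched for level. The genes of a list were read in the same libraries, so counts of positive genes are not counts of independent results, and no list was tested. The SMN complex and Sm methylation genes, which load Sm rings onto snRNA, were positive in 14 of 15, with a median of 0.052. Over the alternatives 10 to 15 were positive. The groups overlapped for each gene of the list, while they did not for 2.50% of all features. The 2 with the smallest p were Strap (6761 ± 459 in WT, 7274 ± 196 in the libraries labelled Slm2KO) and Ddx20 (1814 ± 76.8 and 1936 ± 52.9; SD, n = 4). Proteins with Snrnp symbols were positive in 2 of 7, and in 5 without WT 2 and Slm2KO 4. The spliceosomal helicases and their GTPase were positive in 4 of 12, and in 9 without Slm2KO 4. The other A, B and C complex proteins were positive in 18 of 42. Bud31 had the smallest p of them, with a log2 difference of 0.12 (SE 0.0544). Minor spliceosome proteins were positive in 4 of 9, and in 7 without Slm2KO 4. The exon junction complex was positive in 4 of 6, and in 1 without WT 2 and Slm2KO 4. Rnps1, one of its peripheral proteins, had 5036, 5504, 4722 and 5077 normalised reads in WT and 5430.5, 5431, 3490.4 and 2976 in the libraries labelled Slm2KO. Slm2KO 3 and 4, both of the higher number series, lay below all others, and the log2 difference was -0.28 (SE 0.180; adjusted p = 1.00, limma).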

How the data were processed

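The authors deposited 1 table of signal values, with 1 normalised read count per gene and library: reads divided by a DESeq size factor, per the submitters' processing notes, and not by gene length. The notes list hg19, whereas the file header names mm10; mouse symbols and mm10 coordinates were used as in the file. No source used here gives the aligner, the counting program or its strand setting. Whole reads were recovered from the signal values, and 100% came out whole within 0.001 of a read in each library.

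WT and Slm2KO-labelled libraries (4 each) were compared with limma 3.58.1 in R 4.3.3 on log2(value + 1). The prior followed intensity, no covariate was used, and features needed a mean of at least 10, with Benjamini-Hochberg adjustment over all 25667 at a threshold of 0.05. Differences are on that scale. Ratios within libraries were tested with a two-sided exact permutation test. The 22 alternatives took pseudocounts of 0.5 and 10, no filter or a mean of at least 50, TMM factors, quantile normalisation, edgeR 4.0.16 and DESeq2 1.42.0 on recovered reads, no trend, weights per library, a block for the replicate number, the number series or Ttr as a covariate, and libraries left out. Exon lengths (protein-coding transcripts, inside each row's span) and shared stretches came from GENCODE vM21. Whole exons, and the alternatives for the pathway lists, were added after seeing the data. The procedure was tested on simulated data.

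Genes described with values were those with an unadjusted p under 0.05, the smallest p, the highest and the lowest level per kb of each subfamily, the 11 pairs, and the most and least variable genes; further genes were named after their values were seen. The genes and lists were chosen with earlier results of these data known. Single-gene results of 2 genes are not reported here.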

Additional observations from a re-analysis of the deposited data

Results flagged for a closer look

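Within each group of 4, a library whose distance to its nearest neighbour took up more of the group's range than Dixon's 95% critical value for 4 samples was singled out. Of 140 such groups (70 genes in 2 genotypes) 8 were, against about 1 in 20 by chance. Slm2KO 4 was low for 3 genes: 13724 for Hnrnpa0 (others 16693 to 17194), 8567 for Hnrnpab (others 9171 to 9239.6) and 8327 for Hnrnpl (others 10028 to 10289). WT 3 was low for 2 genes, at 13457 for Hnrnpa0 (others 15933 to 16267) and 11015 for Hnrnpd (others 12015 to 12195). Slm2KO 2 was high for 2 genes, at 33090.3 for Hnrnph1 (others 29369.7 to 29722) and 3501 for Prpf39 (others 3158 to 3194). Slm2KO 1 was low for Hnrnph3, at 1291 (others 1497 to 1509.9). WT 3 and Slm2KO 4 are the libraries with the highest Ttr of their groups (1791307 and 2262369); its part in these values was not tested.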

How the results depend on the processing

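No gene of the 70 passed the adjusted threshold under any alternative run, and 30 to 45 of the 70 differences were positive, with medians of -0.017 to 0.031. None of the 11 ratios passed it either, but the exact test on so few libraries cannot bring a single pair under it. With the replicate block, or without both WT 2 and Slm2KO 4, no ratio could have passed. These runs cannot decide whether a ratio changed. The number of all features called was 9 with DESeq2, 0 without the trend, 2 with Ttr as a covariate, 2 with a pseudocount of 10 and 0 to 2 with 1 library left out. Genes of the 70 with an unadjusted p under 0.05 numbered 0 without the trend, 4 without the libraries of lowest and highest Ttr, and 1 to 3 with 1 library left out. Signs turned for Sf3a2 (0.069), U2af1l4 (0.033) and Prpf40b (0.032) without those 2 libraries, for Sf3a2 (0.038) without Slm2KO 4 and for Hnrnph3 (0.007) without Slm2KO 1; with 1 library left out Sf3a2 ran from -0.158 to 0.038 and Hnrnph3 from -0.111 to 0.007, and the cause was not tested. Each feature's group mean was taken off its log2 values, and the remaining deviations were correlated over the tested features. Between same-numbered libraries of the groups these deviations correlated at 0.124, 0.323, -0.0654 and -0.122. The numbers were therefore not taken to pair the libraries. With the replicate number as a block, 3 of the 70 genes had an unadjusted p under 0.05, 0 were called, and 1 feature was called in all. Of the WT libraries, only WT 2 had deviations that correlated best with those of the Slm2KO-labelled library of its own number. Precision was limited by 4 libraries a group, with a median standard error of 0.0630. With adjustment over all features, changes above 1.25-fold could also go uncalled. Khdrbs3, with a log2 difference of 0.43 (SE 0.0926), did not pass the adjusted threshold in limma.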
